A study of Homo sapiens with 6 samples.

Results

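Interferon-stimulated genes and interferon regulatory factors (IRFs) were examined in HK-2, an immortalized human cell line from the proximal tubule of the kidney, with and without overexpression of the RNA-binding protein hnRNP-F. The group held 45 genes, chosen by symbol as well-known interferon-induced genes, 5 IRFs and STAT2, out of 31831 genes in the deposited count table. All 45 were listed there, and 42 passed edgeR's filter on low counts, together with 17142 genes in all. OAS2, IFITM2 and XAF1 did not pass it. Both groups were cultured in 30 mM glucose for 72 h. The control group (HG-NC, n = 3 libraries) carried a control lentivirus with no insert, which the labels call a control plasmid, and the other group (HG-OE, n = 3 libraries) carried a lentivirus expressing hnRNP-F. Whether the transduced cells were a pool or clones is not given in the sources used here. The study calls the libraries biological replicates and describes parallel wells for each group, and the p-values below measure the spread between these libraries.

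Type I interferons bind a receptor made of IFNAR1 and IFNAR2, whose kinases JAK1 and TYK2 phosphorylate STAT proteins. STAT2 and IRF9 are subunits of the complex ISGF3, which binds the interferon-stimulated response element (ISRE) in front of its target genes. The products block viral entry, translation and replication, and some of them, such as USP18, dampen the receptor again. Many epithelial lines keep a low level of these transcripts without added interferon.

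The ISRE motif was searched for in the RefSeq promoter sequences of GRCh38.p14, each reaching from 250 bases before to 50 bases after the start of the gene. Of the 45 genes, 35 had a promoter in that table. IFIT2, IRF2, IRF3, IRF7, OAS2, OASL, USP18, MX2, IFITM2 and TRIM22 had no entry. The core GAAANNGAAA, read on both strands (TTTCNNTTTC on the other), was in 22 of the 35 promoters (62.9%) and in 996 of all 27305 promoters (3.65%). In 15 of the 35 it occurred 2 or more times, and overlapping matches were counted apart. The stretches below are shown because they carry this shared element in genes that differed in their change. IFIT1, IFIT3 and HERC5 fell. ISG15 and IFITM3 fell in HG-OE replicates 1 and 2, while in replicate 3 ISG15 was at the HG-NC level and IFITM3 was high. IFI27 was high in replicate 3 alone, and the groups of BST2 and LGALS3BP overlapped. The stretches are printed 5′ to 3′ on the strand of the gene, with every core match in capitals.
IFIT1 (chr10:89392482-89392554, plus strand, 2 matches): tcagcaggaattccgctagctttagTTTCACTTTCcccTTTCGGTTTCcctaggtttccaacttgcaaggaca
IFIT3 (chr10:89327816-89327909, plus strand, 2 matches): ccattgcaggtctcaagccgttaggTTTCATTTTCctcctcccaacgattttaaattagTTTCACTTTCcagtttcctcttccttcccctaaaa
HERC5 (chr4:88456969-88457079, plus strand, 3 matches): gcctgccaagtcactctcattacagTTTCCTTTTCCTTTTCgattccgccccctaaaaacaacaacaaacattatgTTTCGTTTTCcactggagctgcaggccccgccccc
ISG15 (chr1:1013359-1013424, plus strand, 2 matches): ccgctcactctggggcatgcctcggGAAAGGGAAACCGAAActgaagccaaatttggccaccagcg
IFITM3 (chr11:320861-320937, minus strand, 2 matches): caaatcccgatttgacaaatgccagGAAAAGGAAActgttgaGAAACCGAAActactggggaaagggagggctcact
IFI27 (chr14:94110603-94110675, plus strand, 2 matches): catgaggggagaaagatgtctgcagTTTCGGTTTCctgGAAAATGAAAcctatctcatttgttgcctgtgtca
BST2 (chr19:17405720-17405785, minus strand, 2 matches): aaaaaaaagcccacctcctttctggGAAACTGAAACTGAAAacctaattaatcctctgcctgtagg
LGALS3BP (chr17:78979947-78980006, minus strand, 1 match): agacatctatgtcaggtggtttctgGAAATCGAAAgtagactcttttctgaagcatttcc
These letters were thus present in genes that passed the test described below and in genes that did not. The GAS motif TTCNNNGAA, which reads the same on both strands, was in 9 of the 35 promoters (25.7%) and in 7.88% of all promoters, and in 3 of those 9 it shared a base with an ISRE core. None of the 3 promoters of STAT2, IRF1 and IRF9 held the ISRE core in this window, while IRF1 and IRF9 held the GAS motif.

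The libraries held 25507595 to 29444841 counts. Counts of the overexpressed gene HNRNPF were higher in every HG-OE library, at 430 to 452 CPM against 304 to 319 CPM in HG-NC (CPM, counts scaled to library size by edgeR's TMM method). The 14 renal epithelial markers summed to 2474 to 2572 CPM in the HG-NC libraries and 3323 to 4008 CPM in the HG-OE libraries, with 4 higher, VIM, KRT8 and KRT18 among them, and PAX8 and KRT19 lower. PAX8 had 11953 to 18291 counts, while CUBN had 10 to 16. The brush-border receptor LRP2 had 17 counts in HG-OE replicate 3 and 0 in the other 5 libraries. ANPEP had 54 counts in that replicate and 0 to 4 elsewhere. With AQP1, these were the 3 of 14 renal markers with at least 50% of their depth-scaled HG-OE counts in replicate 3. HG-OE replicate 3 stood apart from all other libraries. Of 15 hepatocyte markers, 14 had at least 50% of their depth-scaled HG-OE counts in it, and their summed level, dominated elsewhere by SERPINA1, was 268 to 279 CPM in the HG-NC libraries, 463 and 465 CPM in replicates 1 and 2 of HG-OE and 894 CPM in replicate 3. ALB had 4, 1 and 78 counts in HG-NC, 0 and 1 in HG-OE replicates 1 and 2 and 4359 in replicate 3. HG-NC replicate 3 thus held a smaller amount of such transcripts. APOB and FGA had 53 and 65 counts in it, and 0 to 5 in HG-NC replicates 1 and 2. In HG-OE replicate 3 they had 1583 and 761 counts. Of 13 squamous markers listed, 11 had at least 50% in HG-OE replicate 3, with a summed level of 15.7 to 19.2 CPM in the other five libraries and 104 CPM there. KRT5 and KRT6A had 334 and 274 counts there and 0 in every other library. Of 9 leukocyte markers listed, 3 had at least 50% there, with sums of 6.48 to 7.28 CPM elsewhere and 18.4 CPM in it, and the pan-leukocyte marker PTPRC had 1 to 2 counts in each library. The part of these transcripts in the results below was not tested, and the numbers of genes called are therefore also given without HG-OE replicate 3. In bulk RNA, fewer cells expressing a gene and less of its RNA per cell cannot be told apart.

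Most of the 42 genes tested, a list chosen with earlier results of these data known, were lower in the cells overexpressing hnRNP-F. Among 27 further interferon-induced genes tested, described below, 9 fell and 7 rose. In the quasi-likelihood test of edgeR, with p-values adjusted over all 17142 genes by the Benjamini-Hochberg method, 26 of the 42 genes tested fell at an adjusted p under 0.05, where 25.9% of all genes tested fell. Only STAT2, TRIM22 and IFI27 rose, beside 25.9% of all genes, and 13 did not pass. The Wald test of DESeq2, for which the share of all genes called was not computed, gave 22 lower and 0 higher. It did not pass STAT2 and TRIM22 (adjusted p = 0.096 and 0.098) among the rises or ISG15, UBE2L6, MX1 and PARP14 (0.21, 0.074, 0.10 and 0.052) among the decreases, and it gave no adjusted p for IFI27. At an additional 2-fold change, IFIT1, IFIT2, OASL, USP18 and RSAD2 fell (5 of 42, beside 2.13% of all genes) and TRIM22 and IFI27 rose (2 of 42, beside 3.69%). Over the 42 genes the log2 fold change had a median of -0.43, and that of all genes tested was 0.011. In 23 of the 42 every HG-OE library lay below every HG-NC library, against 29.4% of all genes, and in TRIM22 alone every HG-OE library lay above, against 29.6%. For a single gene, an exact two-sided permutation test of 3 libraries against 3 cannot go below p = 0.1. The heat map shows the genes by library.

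**Figure D1:**
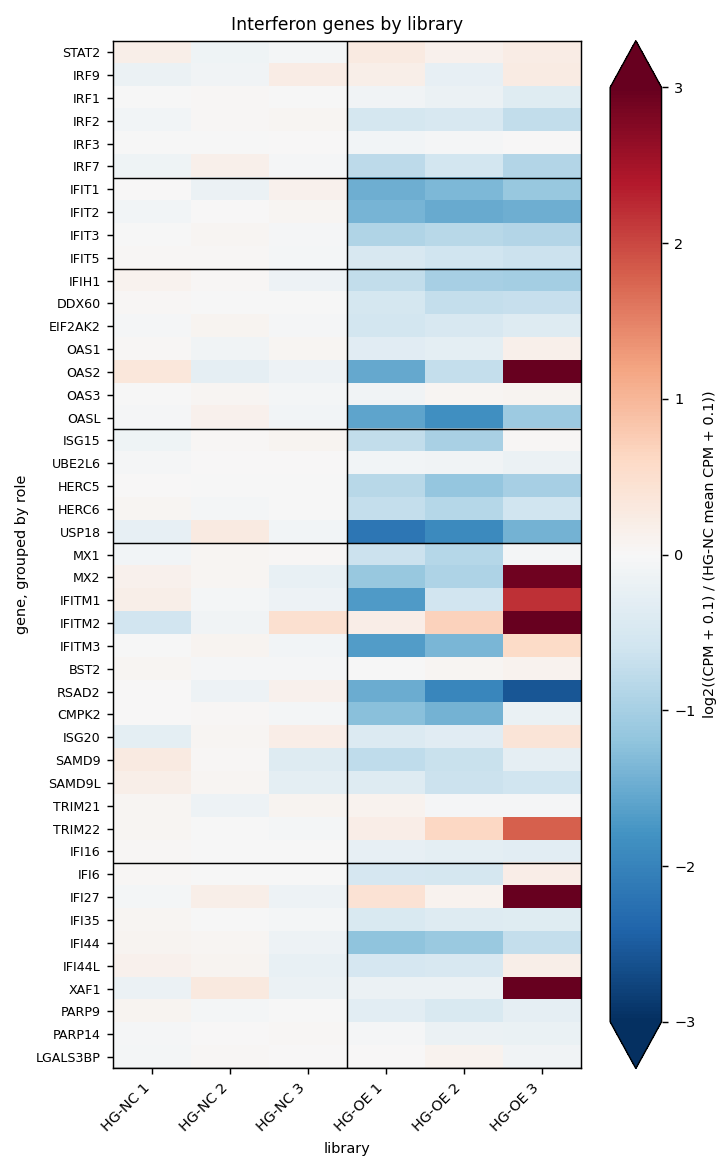
Level of the 45 genes in each library, as the log2 ratio of CPM + 0.1 to the HG-NC mean + 0.1, with genes in rows grouped by role and libraries in columns. The IFIT, HERC5, HERC6 and USP18 rows are blue in all HG-OE libraries, and OAS2, MX2, IFITM1, IFITM2, IFI27 and XAF1 are deepest red in HG-OE replicate 3.

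Without HG-OE replicate 3 the decrease covered more of the genes. The fit of HG-OE replicates 1 and 2 against the 3 HG-NC libraries, over 17366 genes, called 31 of the 42 genes lower (27.2% of all genes) and STAT2 alone higher (26.7% of all genes), while 10 did not pass. With a 2-fold change, 10 were lower (2.63% of all genes) and 0 higher (3.6% of all genes), and CMPK2, IFI44, IFITM1, IFITM3 and MX2 joined the 5 named above. The median log2 fold change was -0.52. In HG-OE replicates 1, 2 and 3 the median log2 ratio of the genes to the HG-NC mean was -0.51, -0.53 and -0.24.

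**Figure D2:**
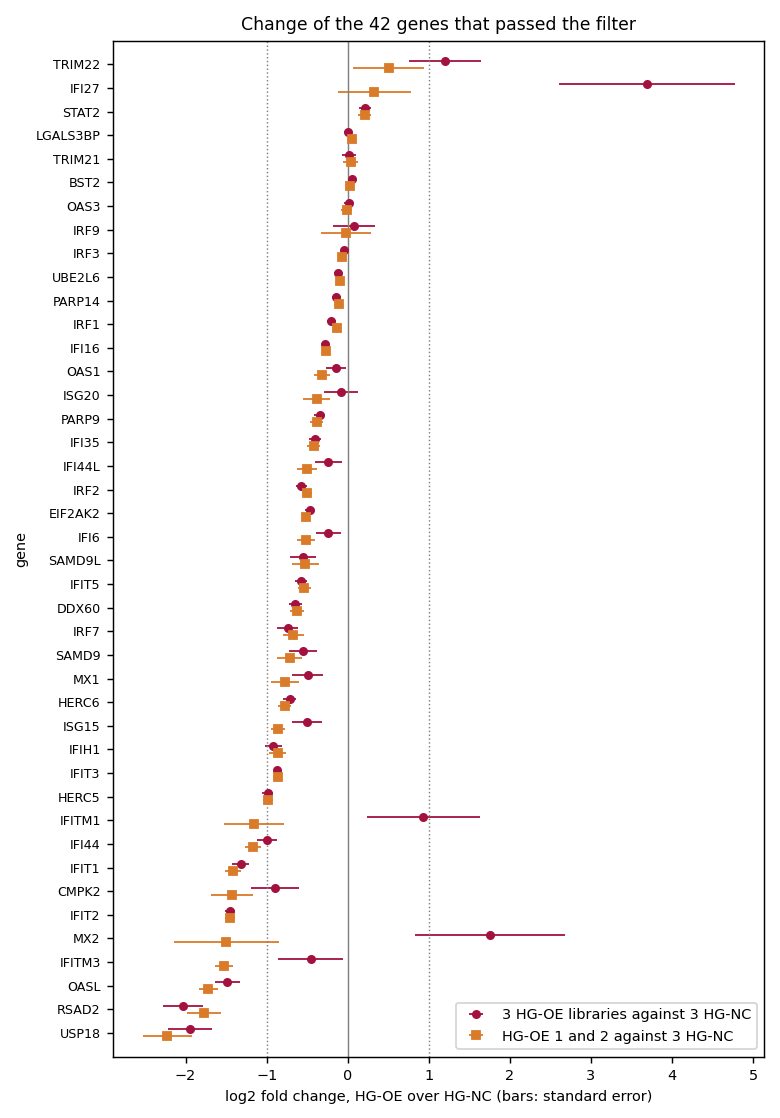
Log2 fold change with its standard error of each of the 42 genes tested, HG-OE over HG-NC, with all 3 HG-OE libraries (circles) and with HG-OE replicates 1 and 2 only (squares), and dotted lines at a 2-fold change. The IFIT genes, HERC5, HERC6 and IFIH1 moved by 0.1 or less, whereas IFITM1, MX2, IFITM3 and IFI27 moved by more than 1 on the log2 scale.

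Among the transcription factors, STAT2, a subunit of ISGF3, rose slightly from 618, 538 and 578 counts in HG-NC to 760, 690 and 739 in HG-OE (log2 fold change 0.21 ± 0.079, standard error, adjusted p = 0.037 in edgeR). The groups overlapped once scaled to depth, at 19.9 to 24.3 CPM and 23.7 to 26.2 CPM. IRF9, which brings ISGF3 to DNA, was scarce at 25 to 39 counts per library and did not pass (0.078, adjusted p = 0.82 in edgeR). IRF3, the factor that first induces interferon-β, did not pass (-0.041, adjusted p = 0.45 in edgeR), at 83.4 ± 0.72 CPM against 81.1 ± 3.0 CPM (SD, n = 3). HG-OE replicates 1 and 2 were at 78.3 and 81.0 CPM, below the 82.7 to 84.2 CPM of HG-NC, and replicate 3 was at 84.2 CPM. Without replicate 3 it did not pass either (-0.068, adjusted p = 0.23 in edgeR).

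The other IRFs fell. IRF7, itself interferon-induced and an amplifier of interferon-α, had 194, 250 and 225 counts in HG-NC and 138, 165 and 131 in HG-OE (log2 fold change -0.74 ± 0.13, adjusted p = 0.00028 in edgeR). IRF2, known as an antagonist of IRF1 on shared sites, fell from 42.8 ± 2.2 to 28.7 ± 2.5 CPM. IRF1 fell least, from 104 ± 1.8 to 90.1 ± 8.1 CPM (log2 fold change -0.20). In all 3 of these genes every HG-OE library was below every HG-NC library, as in 29.4% of all genes tested. Of the 6 transcription factors, 3 fell and 1 rose, beside 25.9% of all genes in each direction.

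All 4 IFIT genes, whose proteins bind viral RNA ends and hold back translation, fell, beside 25.9% of all genes. Their median log2 fold change was -1.10. IFIT2 (ENSG00000119922.11) had 1334, 1512 and 1620 counts in HG-NC and 611, 568 and 591 in HG-OE (log2 fold change -1.45 ± 0.058, adjusted p = 6.2e-10, edgeR). IFIT1 (ENSG00000185745.10) had 509, 473 and 604 counts against 204, 225 and 260 (-1.32 ± 0.11). IFIT3 had 1923, 2138 and 2078 against 1188, 1245 and 1221 (-0.87 ± 0.047). The 3 HG-OE libraries lay close together in each of these genes and far below HG-NC, and replicate 3 did not stand apart. IFIT5 fell less, from 25.02 ± 0.78 to 16.8 ± 1.0 CPM (-0.58 ± 0.070). The 4 genes lie side by side on chromosome 10 of GRCh38, from 89283694 to 89421605 in GENCODE release 44, and the other genes tested within 10 Mb of IFIT1 had a median log2 fold change of -0.034. IFIT1, IFIT2 and IFIT3 overlap LIPA on the opposite strand, and whether the counting used the strand of these directional libraries is not stated in the sources used here.

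Among the sensors of viral RNA and the OAS enzymes, 4 of 6 tested fell, beside 25.9% of all genes. Without HG-OE replicate 3, 5 fell, beside 27.2% of all genes. IFIH1, the sensor MDA5 for long double-stranded RNA, had 464, 474 and 430 counts in HG-NC and 295, 248 and 246 in HG-OE (log2 fold change -0.92 ± 0.10). DDX60, a helicase linked to RIG-I signalling, fell from 18.2 ± 0.34 to 11.6 ± 0.79 CPM, and EIF2AK2, the kinase PKR that halts translation on double-stranded RNA, fell from 75.9 ± 3.8 to 54.9 ± 3.2 CPM. In these 3 genes every HG-OE library was below every HG-NC library, as in 29.4% of all genes tested.

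The OAS family differed within itself. OASL, which lacks the enzymatic activity of the other OAS proteins, had 383, 457 and 411 counts in HG-NC and 150, 124 and 212 in HG-OE (log2 fold change -1.48 ± 0.15, adjusted p = 2.5e-06 in edgeR). OAS1, which makes the activator of RNase L, had 281 and 290 counts in HG-OE replicates 1 and 2 and 397 in replicate 3, beside 309 to 356 in HG-NC. It passed only without replicate 3 (-0.32 ± 0.10, adjusted p = 0.0066, and -0.15, adjusted p = 0.34, with it). OAS3 overlapped between the groups, at 29.5 ± 1.3 and 29.8 ± 2.0 CPM. OAS2 had 10, 6 and 7 counts in HG-NC, 1 and 4 in HG-OE replicates 1 and 2 and 114 in replicate 3.

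All 5 genes of the ISG15 system fell in the edgeR test with 6 libraries, beside 25.9% of all genes. Without HG-OE replicate 3, 4 fell, beside 27.2% of all genes. ISG15 and UBE2L6 did not pass with the Wald test of DESeq2 (adjusted p = 0.21 and 0.074). ISG15 is a ubiquitin-like protein attached to others by UBE2L6 and the ligase HERC5 and removed by USP18, and HERC6 is a relative of HERC5. USP18 had 50, 77 and 62 counts in HG-NC and 13, 16 and 24 in HG-OE (log2 fold change -1.94 ± 0.28, adjusted p = 4.9e-05, edgeR), and without replicate 3 it had the largest decrease of the 42 genes (-2.22 ± 0.30). HERC5 had 1698, 1768 and 1840 counts against 1076, 864 and 973 (-0.99 ± 0.068), and HERC6 fell from 24.5 ± 1.0 to 14.9 ± 1.3 CPM. In these 3 genes all HG-OE libraries were well below HG-NC, and in 29.4% of all genes tested every HG-OE library was lower.

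ISG15 itself was split by replicate 3. It had 531, 632 and 681 counts in HG-NC, 394 and 337 in HG-OE replicates 1 and 2, and 682 in replicate 3, so that this library was at the HG-NC level (23.3 CPM beside 20.9 to 24.4 CPM). The log2 fold change was -0.50 (adjusted p = 0.034 in edgeR) with it and -0.86 ± 0.088 without it. UBE2L6 moved least, from 64.6 ± 0.94 to 59.2 ± 2.0 CPM, and did not pass without replicate 3 (adjusted p = 0.10 in edgeR).

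Of 13 restriction factors tested, 6 fell (25.9% of all genes), TRIM22 rose (25.9% of all genes) and 6 did not pass. The fit without HG-OE replicate 3 gave 10 (27.2% of all genes), 0 (26.7%) and 3. RSAD2, viperin, which makes a chain-terminating nucleotide, had 106, 101 and 126 counts in HG-NC and 41, 29 and 18 in HG-OE, the largest decrease among the 42 genes with 6 libraries (log2 fold change -2.03 ± 0.25, adjusted p = 1.3e-05 in edgeR). Replicate 3 was here the lowest of all libraries. Its neighbour CMPK2, a mitochondrial nucleotide kinase, lies head to head with it on chromosome 2, overlapping by 1079 bases, and had 61, 66 and 64 counts in HG-NC, 27 and 24 in HG-OE replicates 1 and 2 and 60 in replicate 3. The log2 fold change of CMPK2 was -0.90 ± 0.30 with replicate 3 and -1.43 ± 0.26 without it. The pair therefore ranked replicate 3 oppositely. Of the other tested genes within 10 Mb, the median log2 fold change was -0.28.

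The IFITM genes, whose membrane proteins block viral fusion, had far more counts in HG-OE replicate 3 than in replicates 1 and 2. IFITM3 had 414, 466 and 432 counts in HG-NC, 147 and 182 in HG-OE replicates 1 and 2, and 713 in replicate 3. IFITM1 had 36, 32 and 31, then 9 and 23, then 175, and IFITM2 had 0, 1 and 3, then 2 and 4, then 120. With 6 libraries IFITM3 and IFITM1 did not pass (log2 fold changes -0.46 and 0.93, adjusted p = 0.36 and 0.28 in edgeR), and without replicate 3 both fell, by 1.53 and 1.16 on the log2 scale. IFITM1, IFITM2 and IFITM3 are near-identical in parts and IFITM1 and IFITM2 overlap a readthrough gene on the same strand, so the split of reads between them is uncertain.

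MX1, a GTPase against influenza viruses, and MX2, its neighbour on chromosome 21, showed the same kind of gap. MX1 had 102, 120 and 123 counts in HG-NC and 78, 68 and 120 in HG-OE (log2 fold change -0.49, adjusted p = 0.047 in edgeR, and -0.77 without replicate 3), and with all 6 libraries it did not pass in DESeq2 (adjusted p = 0.10) or in limma on log2(FPKM + 1) (0.26). MX2 had 8 to 10 counts in HG-NC, 3 and 4 in HG-OE replicates 1 and 2 and 97 in replicate 3. Its log2 fold change was 1.75 ± 0.93 (adjusted p = 0.13 in edgeR) with replicate 3 and -1.498 ± 0.65 (adjusted p = 0.046) without it, from very few counts.

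SAMD9 and SAMD9L, neighbours on chromosome 7 known for restricting poxviruses, both fell by 0.55 on the log2 scale, but SAMD9 did not pass in limma on log2(FPKM + 1) (adjusted p = 0.078). IFI16, a nuclear DNA sensor, fell narrowly but evenly from 123 ± 1.9 to 101 ± 2.3 CPM, with no overlap. BST2, tetherin, which holds virions at the cell surface, overlapped at 114 ± 4.9 and 118 ± 5.5 CPM, and TRIM21, the cytosolic antibody receptor, at 13.9 ± 1.2 and 14.1 ± 0.72 CPM. ISG20, an exonuclease, passed only without replicate 3 (-0.38, adjusted p = 0.047 in edgeR). TRIM22, a ubiquitin ligase, had 11 counts in each HG-NC library and 14, 20 and 49 in HG-OE, and its rise (1.20 ± 0.45, adjusted p = 0.037) did not pass without replicate 3 (0.51, adjusted p = 0.34). TRIM22 overlaps TRIM5 on the opposite strand.

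Among the remaining interferon-induced genes, 4 of 8 tested fell, beside 25.9% of all genes. Without HG-OE replicate 3, 5 fell, beside 27.2% of all genes. IFI44 had 527, 558 and 498 counts in HG-NC and 246, 264 and 353 in HG-OE (log2 fold change -0.998 ± 0.12). IFI35 and the ADP-ribosyltransferases PARP9 and PARP14 fell by 0.41, 0.35 and 0.14, and PARP14 did not pass without replicate 3 (adjusted p = 0.071 in edgeR). IFI6, an antiapoptotic mitochondrial protein, and IFI44L, next to IFI44 on chromosome 1, passed only without it, at -0.52 and -0.50. LGALS3BP, a secreted glycoprotein, overlapped between the groups at 310 ± 12 and 312 ± 22 CPM.

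IFI27 and XAF1 had counts almost only in replicate 3. IFI27 had 10, 13 and 10 counts in HG-NC, 17 and 13 in HG-OE replicates 1 and 2, and 440 in replicate 3. Its log2 fold change of 3.69 ± 1.1 (adjusted p = 0.011 in edgeR) became 0.33 ± 0.45 (adjusted p = 0.56) without that library. XAF1, an antagonist of the apoptosis inhibitor XIAP, had 0, 1 and 0 counts in HG-NC, 0 in HG-OE replicates 1 and 2 and 27 in replicate 3.

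In all, 9 of the 45 genes had at least 50% of their depth-scaled HG-OE counts in replicate 3. Among the genes that passed the low-count filter these were 6 of 42, beside 2% of all genes tested. The 9 were XAF1 (100%), OAS2 (95.8%), IFITM2 (95.2%), IFI27 (93.6%), MX2 (93.2%), IFITM1 (84.5%), IFITM3 (68.3%), TRIM22 (58.9%) and CMPK2 (53.9%). Among the 42 genes tested, 25 were highest in replicate 3 of the 3 HG-OE libraries, beside 34.8% of all genes. The hepatocyte and squamous markers given above were raised in the same library. The plot of counts for the 9 genes shows this gap.

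**Figure D3:**
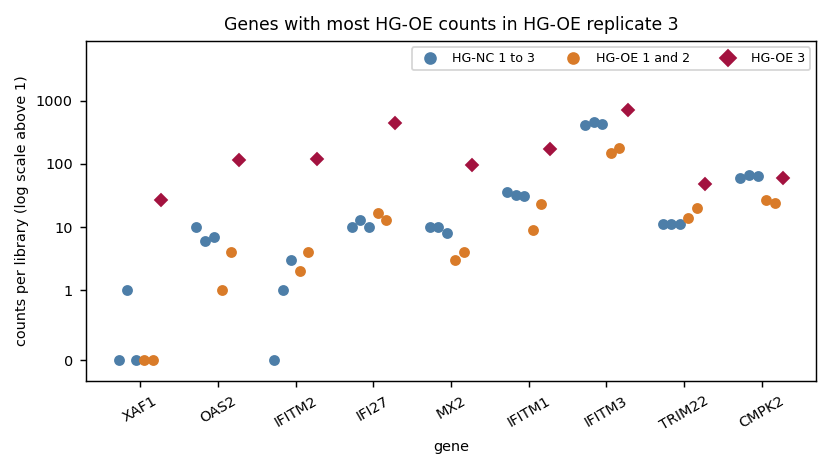
Counts per library, on a scale that is logarithmic above 1, for the 9 genes with at least 50% of their HG-OE counts in replicate 3. Diamonds, HG-OE replicate 3, run from 27 for XAF1 to 713 for IFITM3, and the circles of HG-OE replicates 1 and 2 lie below those of HG-NC for OAS2, MX2, IFITM1, IFITM3 and CMPK2.

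Levels per length, in the authors' FPKM (fragments per kilobase, scaled to depth), spanned several orders of magnitude. BST2 was highest in HG-NC at 92.6 ± 3.8 FPKM, followed by LGALS3BP at 81.1 ± 3.2, UBE2L6 at 28.0 ± 0.46, ISG15 at 23.6 ± 1.9, IFI16 at 20.7 ± 0.26 and IRF3 at 19.7 ± 0.24 (SD, n = 3). In HG-OE, the mean of ISG15 was 16.5 FPKM, and the other five were at 95.0, 80.6, 25.4, 16.8 and 18.9 FPKM in the same order. The 5 genes that fell by 2-fold with 6 libraries held 11.5 (IFIT2), 3.82 (IFIT1), 2.20 (OASL), 1.13 (USP18) and 0.66 (RSAD2) FPKM in HG-NC. None of them was among the 9 highest genes.

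**Figure D4:**
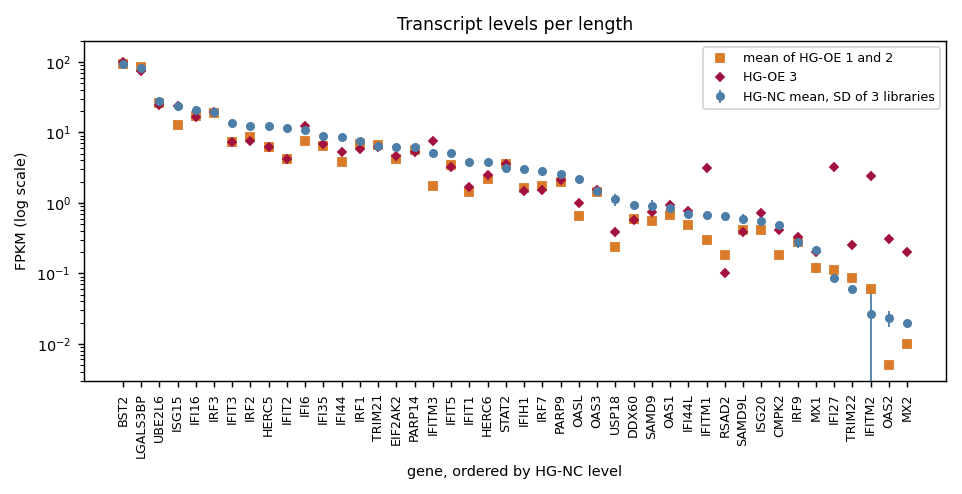
FPKM on a log axis for 44 genes in order of their HG-NC level, with the HG-NC mean and SD of 3 libraries, the mean of HG-OE replicates 1 and 2, and HG-OE replicate 3 apart; XAF1 is listed at 0 FPKM in HG-NC and is not drawn. The highest genes, BST2 and LGALS3BP, coincide in all groups, and the lowest, from IFI27 at 0.087 FPKM down, are raised in replicate 3.

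Another 62 genes of interferon production, signalling and response were followed, of which 55 were tested and 27 are further interferon-induced genes. Of the 55, 25 fell and 9 rose, beside 25.9% of all genes tested in each direction, with a median log2 fold change of -0.11. In the fit without HG-OE replicate 3, 54 were tested. There 23 fell, beside 27.2% of all genes, and 9 rose, beside 26.7%. Transcripts of interferons themselves were scarce: IFNB1 had 0 to 6 counts per library, IFNE 6 to 12 and IFNL3 0 to 2. Among the receptors, IFNGR1, the ligand-binding chain for interferon-γ, fell from 4757, 4824 and 4938 to 3171, 2995 and 2883 counts (-0.80 ± 0.046), and IFNLR1, the chain for interferon-λ, fell by 0.98. IFNAR1 fell by 0.23, and IFNAR2 did not pass (-0.087). Other genes tested within 10 Mb had medians of -0.20 near IFNAR1, -0.34 near IFNGR1 and -0.14 near IFNLR1.

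Of 10 genes of JAK-STAT signalling, 6 fell and 0 rose, beside 25.9% of all genes in each direction. Without HG-OE replicate 3 the decreases numbered 5, beside 27.2% of all genes. STAT3 and its target SOCS3, a feedback inhibitor, fell by 0.67 and 0.59. TYK2 fell by 0.20, and JAK1 by 0.11 (adjusted p = 0.048 in edgeR), which did not pass without HG-OE replicate 3 (adjusted p = 0.13). Of 9 genes of the sensing pathway, 6 fell and 2 rose, beside 25.9% of all genes in each direction. STING1, the adaptor of DNA sensing, fell by 0.96 and CGAS, which makes its ligand, by 0.39, whereas MAVS, the adaptor of RNA sensing, rose by 0.27 and the kinase IKBKE rose from 105, 103 and 142 counts to 296, 322 and 311 (1.29 ± 0.12). RIG-I, listed as DDX58, fell by 0.23.

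Of 27 further interferon-induced genes tested, 9 fell and 7 rose, shares near the 25.9% of all genes in each direction. APOL1, an apolipoprotein known for kidney risk variants, rose from 302, 343 and 324 to 1482, 1593 and 1492 counts (log2 fold change 2.12 ± 0.062, adjusted p = 6.0e-11 in edgeR), and its chromosomal relative APOL6 rose by 0.61. RTP4 rose from 6, 5 and 0 counts to 23, 27 and 23 (2.57 ± 0.55). The interferon-γ-responsive GBP1 rose by 0.55. In all 4 of these genes every HG-OE library was above every HG-NC library, as in 29.6% of all genes tested. The HG-NC counts of RTP4 were few. PLSCR1, NMI and ZC3HAV1 fell by 0.70, 0.69 and 0.40, and PML and ADAR did not pass. GBP4, which did not pass the filter, had 46 counts in HG-OE replicate 3 and 0 to 1 elsewhere. Of the IRFs outside the 45 genes, IRF4 had 12 to 17 counts in HG-NC and 3 to 7 in HG-OE and fell by 1.56, IRF5 did not pass, and IRF8 had 0 to 1 counts.

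**Figure D5:**
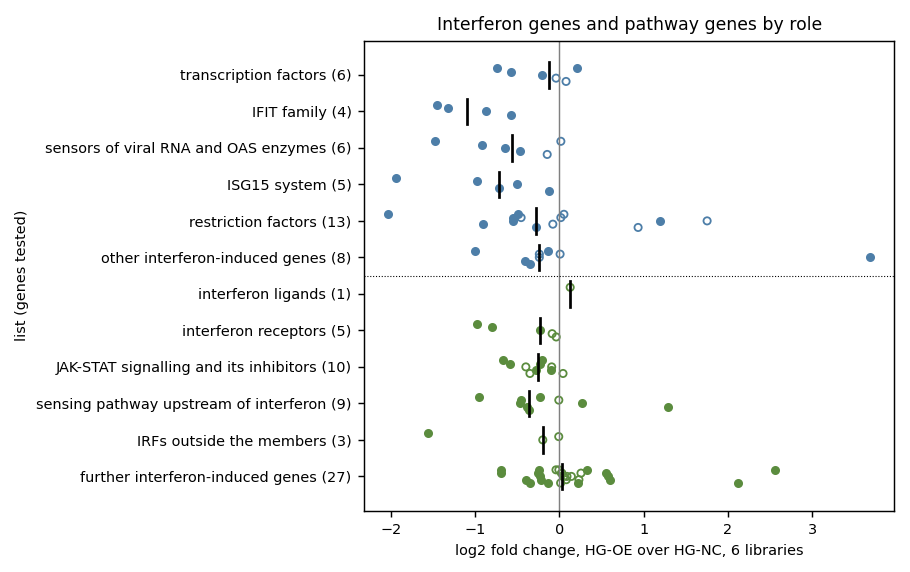
Log2 fold change, HG-OE over HG-NC with 6 libraries, of each gene tested, in rows by role; the 6 upper rows are the interferon-stimulated genes and IRFs and the 6 lower rows the pathway genes, filled where the adjusted p was under 0.05, with a bar at the row's median. The IFIT row has its 4 points between -1.45 and -0.58, and the row of further interferon-induced genes has points on both sides of 0 up to 2.57.

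In several places the genes around a member were shifted too. Other genes tested within 10 Mb had medians of -0.34 near HERC5 and HERC6, -0.31 near EIF2AK2, -0.27 near IFIH1 and -0.26 near DDX60, and of 0.34 near USP18 and 0.19 near IRF7. With the local median removed, PARP14 stood at -0.018, EIF2AK2 at -0.16, HERC6 at -0.38 and HERC5 at -0.65. IRF7 stood at -0.93 and USP18 at -2.29, and the median over the 42 genes was -0.38. The ISRE core was in 16 of 25 promoters (64%) of genes that fell without replicate 3 and in 6 of 9 promoters (66.7%) of the genes that did not pass or rose. As a description, the stretches printed above for BST2 and LGALS3BP, whose groups overlapped, and for IFIT1 and HERC5, which fell, carry the same core.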

How the data were processed

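RNA-seq libraries of HK-2 cells were used, 3 per group. The authors trimmed reads with FASTX-Toolkit, used HISAT2 for alignment to GRCh38 and counted uniquely mapped reads on each gene. The deposited counts are whole numbers not scaled to depth, and the deposited FPKM values are scaled to gene length and depth. The counting tool is not given in the sources used here. The study names ComBat_seq, and whether it entered the counts is not stated. Glucose and culture time come from the study's methods.

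Counts were fitted in R 4.3.3 with edgeR 4.0.16 (TMM, filterByExpr, quasi-likelihood test, Benjamini-Hochberg adjustment over 17142 genes). The called threshold was an adjusted p of 0.05, and a fold of 2 where stated. Standard errors come from that fit. DESeq2 1.42.0 and limma 3.58.1 served as alternatives, beside other size factors, other low-count filters, a replicate block, the omission of single libraries and the median of neighbouring genes removed. Replicate numbers did not pair the libraries. Steps were tested on simulated data. Intervals of counting error were not needed, and a count of 0 allows up to 3 counts. Gene positions were taken from GENCODE release 44 (GRCh38) and promoters from RefSeq. The genes named are the 45 and the pathway and marker lists. Genes and lists were chosen with earlier results of these data known. The mannitol libraries were not analysed here.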

Additional observations from a re-analysis of the deposited data

How the results depend on the processing

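The number of the 45 genes at an adjusted p under 0.05 was 29 (26 lower, 3 higher, beside 25.9% of all genes in each direction). It stayed between 20 and 32 in all settings tried, with 40 to 45 of the genes fitted. With the Wald test of DESeq2, 22 fell and 0 rose. The share of all genes called was computed only for the main fit and the fit without HG-OE replicate 3. The number with a 2-fold change was 7 (5 lower, 2 higher, beside 2.13% and 3.69% of all genes). It became 12 without the low-count filter (7 lower, 5 higher) and 1 with limma on log2(FPKM + 1), which understates the change of low genes. Leaving out 1 library at a time, it ran from 5 to 12. Without HG-OE replicate 1 it was 12 (7 lower, 5 higher), when MX2 and IFITM1 passed as higher. Without HG-OE replicate 3 it was 10 (all lower, beside 2.63% of all genes). The median log2 fold change, -0.43, became -0.25 with limma on log2(FPKM + 1). With the replicate number as a block, 29 genes passed and 8 changed by 2-fold. Deviations of same-numbered libraries correlated at -0.027, 0.030 and -0.00099, so the numbers were not taken as pairs, and not every library correlated best with its own number.

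With each library left out in turn, the log2 fold change changed sign for MX2 (-1.498 to 2.29), IFITM1 (-1.16 to 1.45), IRF9 (-0.020 to 0.23), OAS3 (-0.015 to 0.071), ISG20 (-0.38 to 0.066), TRIM21 (-0.054 to 0.059) and LGALS3BP (-0.046 to 0.058). For IRF9, MX2 and IFITM1 the change of sign came without HG-OE replicate 3 only. LGALS3BP, 0.0074 with 6 libraries, was -0.010 with limma on log2(FPKM + 0.1) and on log2(FPKM + 1) and -0.0072 without the low-count filter. The other genes tested kept their direction in every refit. With the median of neighbours removed, IRF3 stood at 0.012, IRF9 at -0.11, OAS3 at -0.13 and TRIM21 at -0.14. Of the genes called, 10 lost the call with at least 1 library left out, with the highest adjusted p at 0.086 for CMPK2, 0.56 for IFI27, 0.14 for ISG15, 0.19 for MX1, 0.12 for PARP14, 0.12 for SAMD9, 0.061 for SAMD9L, 0.18 for STAT2, 0.34 for TRIM22 and 0.10 for UBE2L6 (edgeR), and in each of the 10 an HG-NC library was among those whose omission ended the call. Groups of 3 libraries and genes with under 20 counts per library limit what could be called.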
